A study of Macaca mulatta with 6 samples.

Results

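Heterotrimeric G protein subunits and the RGS proteins that switch them off were examined in cells cut by laser from the dorsal raphe nucleus of female rhesus macaques. Members were all probe sets annotated with a single gene symbol beginning with GNAI, GNAO, GNAS, GNAQ, GNAZ, GNA1, GNB, GNG or RGS, with a digit required after GNB, GNG and RGS, and GNB2L1 left out. The rule found 58 probe sets of 34 genes, among 24956 probe sets with 1 symbol and 52766 that are not controls. These were 9 probe sets of 5 alpha subunit genes, 8 of 4 beta subunit genes, 7 of 6 gamma subunit genes and 30 of 16 RGS genes. The other 4 belong to GNB1L, RGS7BP and RGS9BP, which share the letters and are neither subunits of the trimer nor RGS proteins. Genes such as GNAI2, GNAS, GNAQ, GNAZ, GNB2, RGS5 and RGS17 have no probe set named for them alone in the annotation used and are not analysed here.

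A G protein of this kind is a switch made of an alpha subunit, which binds GTP, and a tightly joined beta and gamma pair. An activated receptor loads the alpha subunit with GTP, the alpha subunit and the beta-gamma pair then act on effectors, and hydrolysis of the GTP ends the signal. RGS proteins speed that hydrolysis. In serotonin neurons the autoreceptor encoded by HTR1A couples to alpha subunits of the Gi/o family, which inhibit adenylyl cyclase, while the released beta-gamma pair opens GIRK potassium channels and quiets the cell.

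There were 6 arrays, 2 for each treatment, taken here as 1 monkey each because the samples are numbered within a group; the labels do not state this, so p-values measure the spread between these samples. Steroids were given for 1 month from Silastic capsules placed under the skin. The groups are placebo, whose sample names carry Ovx (taken to mean that the ovaries were removed), estrogen alone, and estrogen together with progesterone, written E+P below. Ages are not given, nor whether the ovaries of the hormone-treated animals were removed. The cells are labelled as serotonin neurons. Of 10 serotonin neuron markers 7 were named, and 3 and 4 of these exceeded the array floor defined below under placebo, 5 and 6 under estrogen, and 4 and 3 under E+P. The transcription factors FEV and GATA3 did so on all 6 arrays. TPH2, the tryptophan hydroxylase of these neurons, read 126 and 211 under placebo, 54.0 and 63.2 under estrogen, and 12.5 and 243 under E+P. It exceeded the floor on the estrogen arrays alone, where its signal was lower than under placebo and the floor lower still. GFAP of astrocytes and MBP of myelin exceeded it on all 6 arrays, with signals up to 18296 and 43656.

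The arrays differed in background. An array's floor was set at the 95th percentile of its 59 bacterial and tag control probe sets. It was 216 and 221 for placebo, 29.99 and 51.6 for estrogen, and 74.9 and 283 for E+P. The hybridization controls differed as well. The median of their 27 probe sets was 14415 and 8665 for placebo, 2430 and 1596 for estrogen, and 3684 and 11504 for E+P. So floors and these controls were high on the same arrays, the difference was not in background alone, and its source was not tested. Both estrogen arrays and E+P 1 are called the low-floor arrays below, and the other 3 the high-floor arrays, a division made after the values were seen. E+P 2 stood apart: across the 26383 tested probe sets, which are not independent replicates, it correlated with E+P 1 at r = 0.000477, whereas E+P 1 and estrogen 1 correlated at 0.913. In captured tissue, fewer cells of a type and less RNA per cell cannot be told apart.

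Member probe sets exceeded the floor in a larger share than all probe sets on 5 of the 6 arrays. Of the 58 member probe sets, 24 and 28 did so under placebo, 50 and 41 under estrogen, and 35 and 16 under E+P. As shares these were 41.4% and 48.3%, 86.2% and 70.7%, and 60.3% and 27.6%, against 37.3% and 36.3%, 62.2% and 58.5%, and 49.6% and 28.7% of all 52766 probe sets. Estrogen 1 had the highest share and E+P 2 the lowest, for members and for all probe sets. All 52766 include 27449 probe sets without a symbol, while every member has 1. Shares of those with 1 symbol were not taken for single arrays. On all 6 arrays 8 member probe sets exceeded the floor (13.8%, against 10.1% of all and 11.9% of those with 1 symbol). They were 1 each of GNAI1, GNAI3, GNAO1, GNB4, RGS7, RGS12, RGS14 and RGS22. On no array did 5 exceed it (8.62%, against 19.5% of all and 14.4% of those with 1 symbol). Among these were the single probe set of GNA14 and 2 of the 5 of RGS12.

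**Figure D1:**
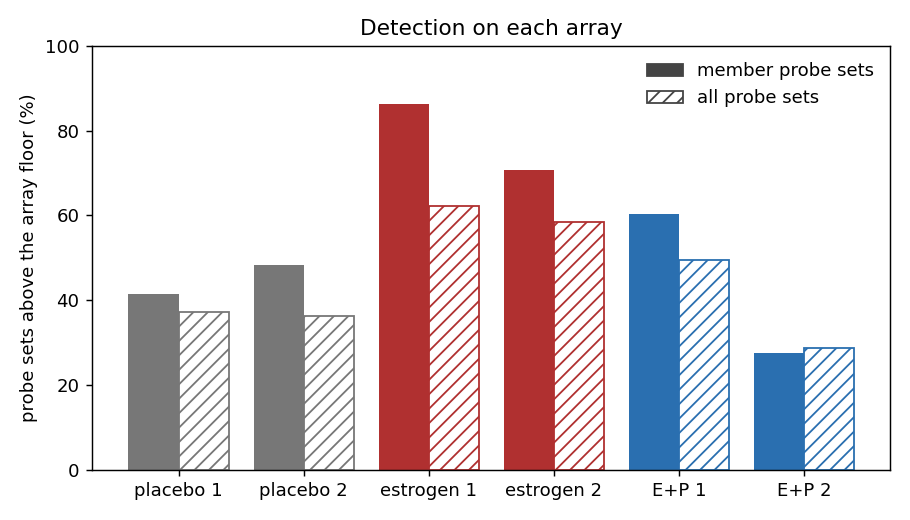
Percent of probe sets above the array floor (vertical axis) on each of the 6 arrays (horizontal axis; E+P is estrogen with progesterone). Filled bars are the 58 member probe sets and hatched bars all 52766 probe sets; members range from 27.6% on E+P 2 to 86.2% on estrogen 1.

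Alpha subunits of the Gi/o family had some of the clearest signals among the members, and none of their differences between treatments passed the test. GNAO1 encodes Go alpha, an abundant G protein of neurons. Its signals were 1477 and 739.8 under placebo, 5532 and 4406 under estrogen, and 4168 and 672 under E+P. It exceeded the floor everywhere, and each low-floor array was above each high-floor array. On the normalized log2 scale estrogen minus placebo was 0.98 ± 0.85 (SE, n = 2 per group; limma with Benjamini-Hochberg adjustment, adjusted p = 0.757), and these groups did not overlap. For E+P minus placebo GNAO1 stood at 0.29 ± 0.85 (limma adjusted p = 0.992), and for E+P minus estrogen at -0.69 ± 0.85 (limma adjusted p = 0.811). Without E+P 2 these were 0.73 and -0.34. The scaling set the size of the estrogen difference, which was 3.47 with median-centering in place of quantile normalization and 2.22 with no normalization. The median of all tested probe sets, 0.17 with quantile normalization, was 1.11 and -0.14 under those scalings.

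GNAI1 encodes a Gi alpha subunit that inhibits adenylyl cyclase. One probe set read 511 and 1079 under placebo, 2399 and 1310.3 under estrogen, and 2426 and 211 under E+P. The other read 392 and 799.8 under placebo, 1492 and 682 under estrogen, and 1442 and 485 under E+P. Both put E+P 1 far above E+P 2. In deposited signal the first put estrogen above placebo on both arrays, and after normalization the groups overlapped in all 3 comparisons for both probe sets. Estrogen minus placebo was 0.22 ± 1.14 and 0.10 ± 0.88 for these probe sets with quantile normalization, each smaller than its error. For the first it was 2.48 with median-centering and 1.24 with no normalization. For E+P minus estrogen they had opposite signs, -1.30 ± 1.14 and 0.12 ± 0.88, and without E+P 2 the first became 0.41.

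GNAI3 encodes a closely related Gi alpha subunit. Its brightest probe set read 350.0 and 545 under placebo, 1469 and 1379 under estrogen, and 1401 and 471 under E+P. Again each low-floor array was above each high-floor array, and the estrogen and placebo groups did not overlap. GNAI3 stood at 0.95 ± 0.84 for estrogen minus placebo (limma adjusted p = 0.762), at 2.91 with median-centering and at 1.67 with no normalization. Another 2 tested probe sets gave 0.32 and -0.10. The last tested one was below the floor under placebo, at 74.9 and 162, and above it under estrogen, at 108 and 198. In deposited signal these pairs overlap, and both estrogen values lie under the placebo floors of 216 and 221. Only after quantile normalization was estrogen higher against the placebo floor, by at least 1.26-fold (limma adjusted p = 0.687).

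The remaining alpha subunits were near or under background. GNA13 exceeded the floor on placebo 2 alone, at 236, and read 6.72 to 47.5 on the other 5 arrays. GNA14, of the Gq family that activates phospholipase C, exceeded it nowhere and read 25.7 to 251. Neither was bright enough to be tested. Of the 7 tested alpha probe sets, all of the Gi/o family, 6 stood above 0 for estrogen minus placebo, against 55.2% of all tested probe sets. Their median was 0.32 there (0.17 over all), 0.29 for E+P minus placebo (-0.03 over all) and -0.33 for E+P minus estrogen (-0.22 over all). With median-centering the first 2 of these alpha medians were 2.08 and 1.01, and with no normalization 0.83 and 0.57. The last was 0.10 over all 9 alpha probe sets with no filter on signal.

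**Figure D2:**
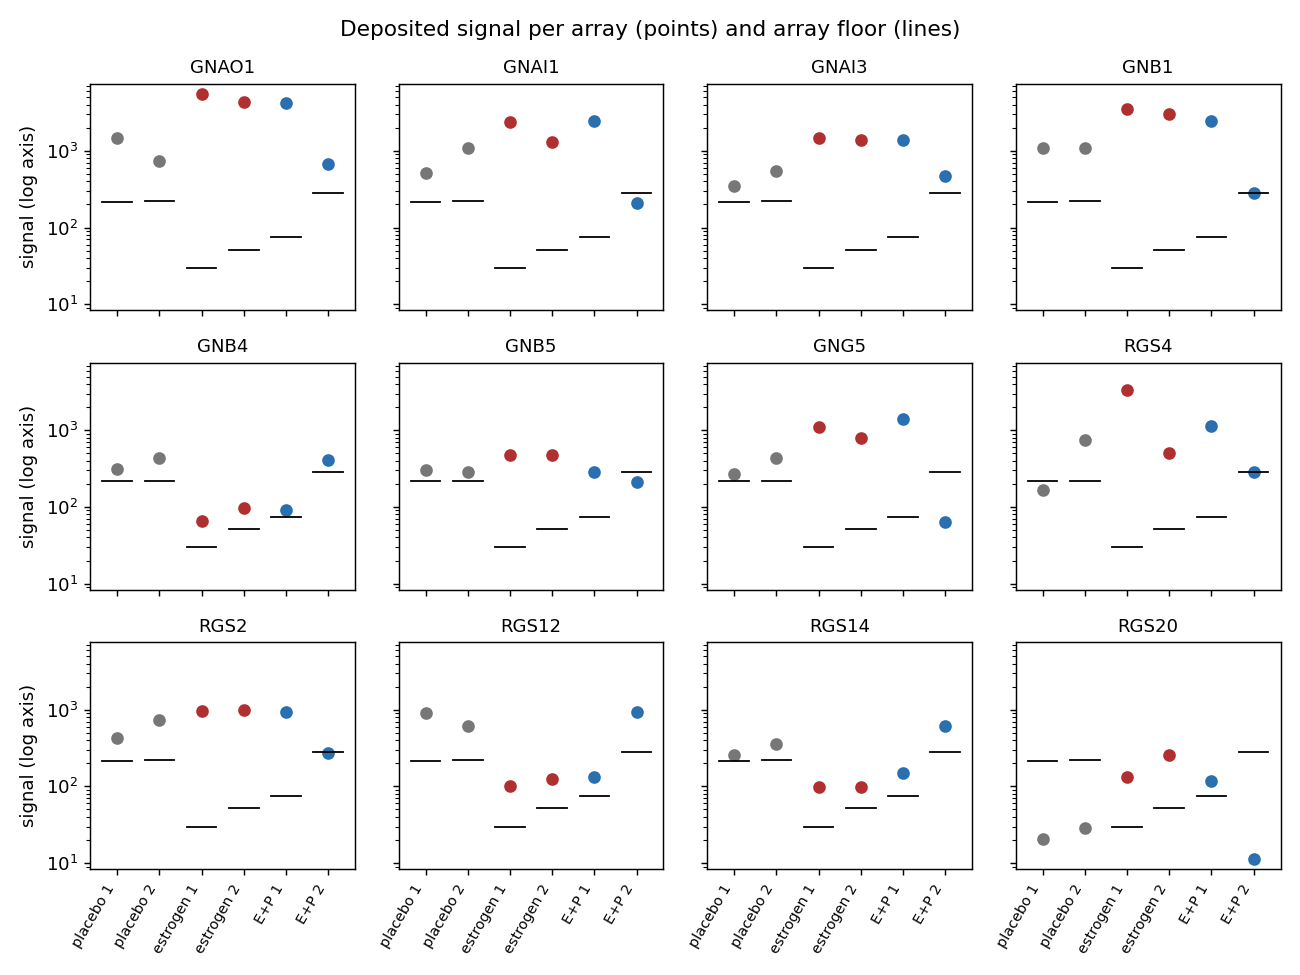
Deposited signal (points, log axis) of 12 genes on each array, each gene by its brightest probe set among those tested (RGS20, untested, by its brightest), with that array's floor as a short line; E+P is estrogen with progesterone. GNAO1, GNAI3 and GNB1 show the estrogen arrays and E+P 1 above the other 3, RGS12, RGS14 and GNB4 show the reverse, and RGS20 exceeds the floor on the estrogen arrays and E+P 1 only.

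Beta subunits were led by GNB1, a widely expressed member. Its brightest probe set read 1097 and 1079 under placebo, 3550.4 and 3065 under estrogen, and 2478 and 279.8 under E+P, the last just under that array's floor. Estrogen lay above placebo on both arrays, and E+P 2 lay below every other array. GNB1 stood at 0.36 ± 1.02 for estrogen minus placebo with quantile normalization, at 2.83 with median-centering and at 1.59 with no normalization. E+P stood at -1.78 ± 1.02 against estrogen (limma adjusted p = 0.799) and at -1.42 ± 1.02 against placebo; without E+P 2 these were -0.42 and -0.03.

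A second tested GNB1 probe set was below the floor under placebo, at 23.9 and 212, and read 252 and 251 under estrogen. After quantile normalization that was at least 1.73-fold higher against the placebo floor (limma adjusted p = 0.642). The remaining GNB1 probe set, too dim to be tested, read 15.2 and 14.1 under placebo, 275 and 264 under estrogen, and 205 and 17.3 under E+P. It exceeded the floor on the low-floor arrays and on no other.

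GNB4, another beta subunit, showed the reverse order. It read 309.5 and 437 under placebo, 65.3 and 97.8 under estrogen, and 91.5 and 407 under E+P, above the floor on all 6 arrays. The estrogen group lay wholly below the placebo group, at -1.42 ± 0.90 (limma adjusted p = 0.685). Over each array's floor, log2 signal was 0.52 and 0.985 under placebo and 1.12 and 0.92 under estrogen, and these pairs overlapped.

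GNB5 is a divergent beta subunit that pairs with RGS proteins of the R7 family. It read 307 and 289.7 under placebo, 483 and 480.5 under estrogen, and 286 and 209 under E+P. The estrogen pair was above all other arrays. GNB5 stood at 0.69 ± 0.84 for estrogen minus placebo and at -1.03 ± 0.84 for E+P minus estrogen, with no overlap in either, and a second tested probe set had the same signs, at 0.41 and -0.40. Without E+P 2 the second difference of the first probe set was -0.49. GNB3 read 152 and 321 under placebo, 93.0 and 264 under estrogen, and 202 and 252 under E+P, and its groups overlapped in all 3 comparisons. Of the 6 tested beta probe sets, 5 stood above 0 for estrogen minus placebo (median 0.38) and 1 for E+P minus estrogen (median -0.64), where 42.6% of all tested probe sets did. The beta median for E+P minus placebo was -0.16, and 0.14 with median-centering in place of quantile normalization.

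Gamma subunits anchor the beta-gamma pair to the membrane through a lipid tail, and all 6 named genes entered the test. GNG5 read 270.4 and 430.0 under placebo, 1104 and 797 under estrogen, and 1415 and 63.7 under E+P. The last value was under its floor, and the E+P pair held both the highest and the lowest value. Estrogen minus placebo was 1.04 ± 1.25, without overlap, and E+P minus estrogen -1.59 ± 1.25, which became 0.54 without E+P 2. GNG10 read 148 and 422 under placebo, 1337 and 205 under estrogen, and 529.7 and 150.2 under E+P, and overlapped in every comparison.

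GNG8 was below the floor under placebo, at 201 and 160.2, and above it under estrogen, at 771 and 179; under E+P it read 135 and 199.6. Only estrogen 1 was clearly bright, and estrogen 2 lay within the placebo pair in deposited signal. After quantile normalization estrogen was at least 2.19-fold higher against the placebo floor (limma adjusted p = 0.670), and E+P minus estrogen was -1.19 ± 0.87. Both rested on estrogen 1: without it the latter was -0.43, and the fitted difference behind the former went from 1.47 to 0.69.

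GNG4 lay close to background, with signals of 122 and 77.0 under placebo, 128 and 99.3 under estrogen, and 123 and 90.0 under E+P. These deposited signals overlap. After quantile normalization estrogen was at least 1.05-fold higher against the placebo floor (limma adjusted p = 0.711), and the fitted difference behind it, 1.20, was 0.18 with no normalization. GNG7, best known from the striatum, read 331 and 262 under placebo, 93.6 and 78.8 under estrogen, and 281 and 97.4 under E+P. Both estrogen values were below placebo (-0.85 ± 0.93). Over each array's floor, its log2 signal was 0.62 and 0.25 under placebo and 1.64 and 0.61 under estrogen, and these pairs overlapped.

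GNG11 read 49.7 and 309.8 under placebo, 131 and 176 under estrogen, and 219.8 and 536 under E+P, with E+P 2 highest and placebo 1 lowest. Its log2 difference of E+P minus placebo, 1.99 ± 1.05, was the highest among tested members, but those groups overlapped and a second probe set gave -0.37. Leaving out 1 array gave 0.72 (without placebo 1) to 3.42 (without placebo 2), and 1.23 without E+P 2. Over 7 gamma probe sets the median was 1.03 for estrogen minus placebo, or 0.20 with no normalization, and -0.69 for E+P minus estrogen. For E+P minus placebo it was -0.01, and 0.36 with median-centering.

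**Figure D3:**
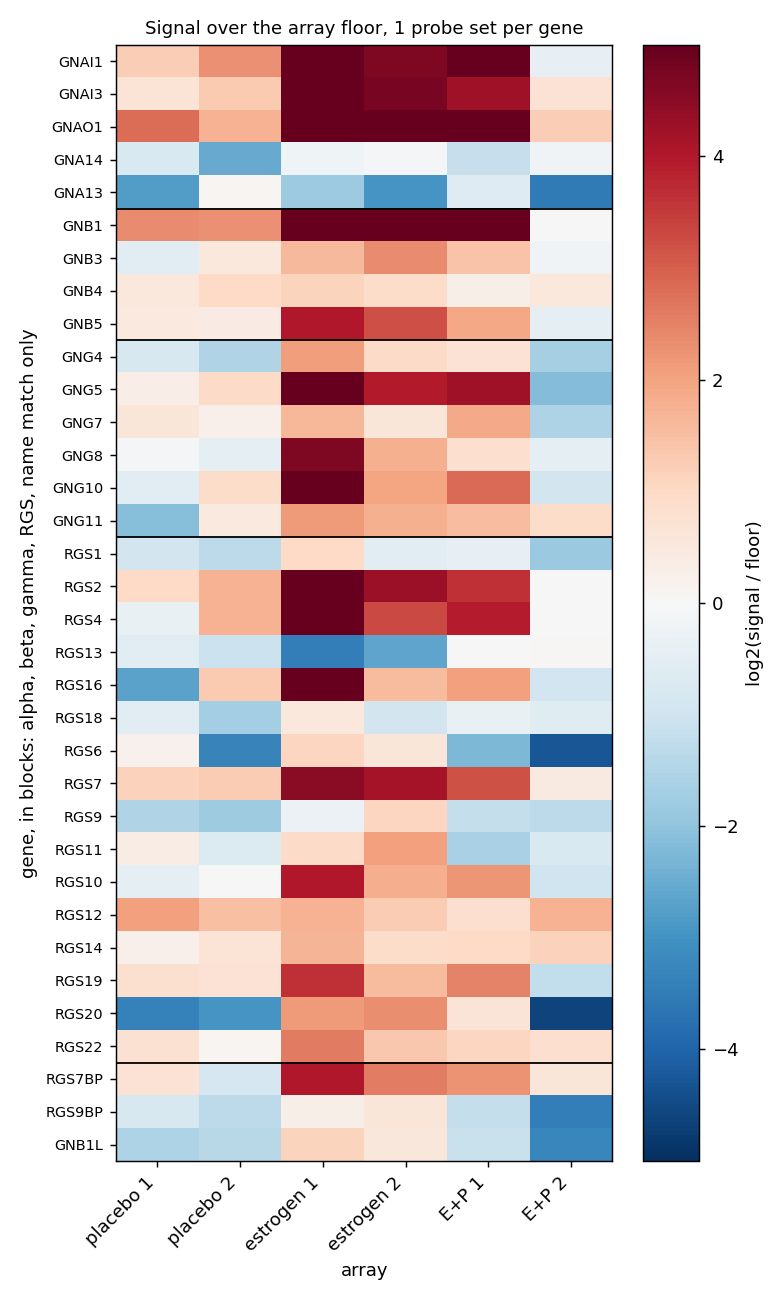
Log2 of signal over array floor (colour, saturated beyond 5 in either direction) for 1 probe set per gene, 34 genes in rows and 6 arrays in columns; red is above the floor, blue below, and E+P is estrogen with progesterone. GNAO1 and RGS7 are red on all 6 arrays, and GNA14 is on none.

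RGS proteins of the R4 family are short and act on Gi/o and Gq alpha subunits. RGS4, a neuronal member, read 166 and 746 under placebo, 3315 and 504 under estrogen, and 1154 and 282 under E+P. Estrogen 1 was the highest array and the groups overlapped in every comparison. Estrogen minus placebo was 1.37 ± 1.23, and -0.19 without placebo 1. A second tested RGS4 probe set gave -0.39 there, with signals of 210.4 and 300.3 under placebo, 250.3 and 48.5 under estrogen, and 51.4 and 35.1 under E+P. For E+P minus estrogen the first gave -1.08 ± 1.23, which was -0.12 without E+P 2 and -0.07 without estrogen 1. The second was below the floor on both E+P arrays and on estrogen 2, so no size is given there.

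RGS16, a close relative, read 34.1 and 544 under placebo, 1692 and 153 under estrogen, and 314 and 147 under E+P. As for RGS4, estrogen 1 was the highest array and by this probe set estrogen 2 lay within the range of the other groups. A second RGS16 probe set, too dim to be tested, read 15.5 and 47.9 under placebo, 690 and 128 under estrogen, and 61.2 and 47.0 under E+P. It exceeded the floor on the estrogen arrays alone. The dopamine neuron markers were also highest on estrogen 1: SLC6A3 read 602 and 538 under placebo, 7760 and 603 under estrogen, and 1993 and 155 under E+P, and TH exceeded the floor on the low-floor arrays only. GNG10 too was highest on estrogen 1, as were GNAO1, GNAI3, GNB1, GNB5, GNG4, GNG8 and RGS10 by their brightest probe sets. Others, such as GNAI1, GNG5 and RGS2, were not. So this order was common among members, and the part of dopamine neurons in any of these values was not tested. RGS2, which prefers Gq and is induced by many stimuli, read 432 and 731 under placebo, 959 and 993 under estrogen, and 943 and 276 under E+P. Its estrogen minus placebo difference was 0.04 ± 0.92, and E+P minus placebo was -0.85 ± 0.92, or 0.05 without E+P 2. The R4 members best known from blood and immune cells were near background and untested. RGS1 and RGS18 exceeded the floor on estrogen 1 alone, at 60.2 and 43.0, and RGS13 on E+P 2 alone, at 298. On the placebo arrays, with their higher floors, RGS1 read 115 and 89.4 and RGS18 read 151 and 67.5.

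R7 proteins act with GNB5 and are largely neuronal. RGS7 read 476 and 537 under placebo, 682 and 923 under estrogen, and 674 and 389.6 under E+P, above the floor on all 6 arrays. Each low-floor array was above each high-floor array, yet after normalization estrogen minus placebo was -0.01 ± 0.81. A second tested RGS7 probe set gave 1.22 ± 1.03 there. For E+P minus placebo it gave 0.98 ± 1.03, where the first gave -0.38 ± 0.81. The groups of this second probe set overlapped in every comparison. RGS11 read 281 and 137 under placebo, 58.4 and 213 under estrogen, and 24.1 and 165 under E+P. It exceeded the floor on both estrogen arrays and neither E+P array. In deposited signal these pairs overlap, and both estrogen values lie under the E+P 2 floor of 283. After quantile normalization it was lower under E+P by at least 1.13-fold (limma adjusted p = 0.799). RGS6 exceeded the floor on placebo 1 and both estrogen arrays, and RGS9 on estrogen 2 alone.

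RGS7BP, which tethers R7 complexes to the membrane, read 358 and 123 under placebo, 478 and 308 under estrogen, and 352 and 426 under E+P. E+P overlapped placebo in deposited signal. After normalization it was the 1 member wholly above placebo by at least 1 under E+P, at 1.20 ± 0.92 (limma adjusted p = 0.992), and 0.22 without placebo 2.

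R12 proteins held the largest difference between estrogen and placebo, and their probe sets disagreed. RGS12, a large protein that can also bind GDP-loaded Gi alpha, read 902 and 619 under placebo, 99.9 and 123 under estrogen, and 133 and 937 under E+P. All 6 values exceeded the floor, and each high-floor array was well above each low-floor array. Over each array's floor, its log2 signal was 2.06 and 1.49 under placebo, 1.74 and 1.255 under estrogen, and 0.83 and 1.73 under E+P. By that measure the placebo and estrogen pairs overlapped. Estrogen minus placebo was -2.53 ± 1.17 (limma, unadjusted p = 0.0565, adjusted p = 0.637), the largest in size of any member there. E+P minus estrogen was 1.97 ± 1.17, and 0.10 without E+P 2.

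A second RGS12 probe set read 403 and 221 under placebo, 118 and 265 under estrogen, and 30.0 and 103 under E+P. Here the E+P pair was lowest and below the floor on both arrays. After quantile normalization E+P was lower than placebo by at least 1.72-fold (limma, unadjusted p = 0.0418, adjusted p = 0.992). It was lower than estrogen by at least 1.48-fold (limma adjusted p = 0.799). In deposited signal both estrogen values and placebo 2 lay under the E+P 2 floor of 283.

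RGS14, the other R12 member that binds GDP-loaded Gi alpha, had the order of the first RGS12 probe set in deposited signal. It read 254 and 353 under placebo, 97.3 and 98.4 under estrogen, and 149.9 and 621 under E+P, all above the floor. Over each array's floor, its log2 signal was 0.24 and 0.68 under placebo, 1.70 and 0.93 under estrogen, and 0.9998 and 1.135 under E+P. By that measure RGS14 was higher under estrogen than under placebo. It stood at -0.77 ± 0.99 for estrogen minus placebo and at 1.56 ± 0.99 for E+P minus estrogen, the latter 0.37 without E+P 2.

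RGS10 is a small R12 protein prominent in microglia and also present in neurons. Its brightest probe set read 154 and 225 under placebo, 479 and 181 under estrogen, and 341 and 140.0 under E+P, and estrogen minus placebo was 1.18 ± 0.94. A second tested probe set read 230.3 and 354 under placebo, 63.0 and 43.6 under estrogen, and 127 and 428 under E+P, and gave -1.31 for the same comparison. Neither overlapped after normalization, so the direction for RGS10 depended on the probe set. For the second, log2 signal over each array's floor was 0.09 and 0.68 under placebo and 1.07 and -0.24 under estrogen, and these pairs overlapped. All 8 microglial markers listed were named. Of these, 6 and 7 exceeded the floor under placebo, 8 and 8 under estrogen, where the floors were lowest, and 6 and 3 under E+P. On the normalized scale 4 of the 8 stood above 0 for estrogen minus placebo, with a median of -0.03. The part of microglia in the RGS10 values was not tested.

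In the RZ family, RGS20 is selective for the alpha subunit Gz. It read 20.6 and 28.9 under placebo, 132 and 255 under estrogen, and 118 and 11.4 under E+P. It exceeded the floor on the low-floor arrays and on no other, and was too dim to be tested. After quantile normalization it was at least 1.45-fold higher under estrogen against the placebo floor. In deposited signal estrogen 1, at 132, lay under the placebo floors of 216 and 221. RGS19 read 374 and 361 under placebo, 379.9 and 156 under estrogen, and 417 and 120.1 under E+P, and RGS22, better known from testis, read 371 and 238 under placebo, 179 and 131 under estrogen, and 157 and 513 under E+P. RGS22 exceeded the floor throughout, and RGS19 on all but E+P 2. The anchoring protein RGS9BP and the beta-like GNB1L exceeded it on the estrogen arrays only, by their brightest probe sets. RGS9BP read 125 and 88.4 under placebo and 36.4 and 77.5 under estrogen. GNB1L read 74.3 and 85.4 under placebo and 64.9 and 76.1 under estrogen. So the signal was lower or overlapping under estrogen, and the floor was lower there.

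Of the 15 tested RGS probe sets, 7 stood above 0 for estrogen minus placebo, with a median of -0.01 that became 0.57 with median-centering and -0.68 with no normalization. For E+P minus placebo 7 stood above 0, against 48.8% of all, with a median of -0.38 that became 0.32 with median-centering. For E+P minus estrogen 4 did, with a median of -0.72.

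Across all roles, 36 probe sets of 24 genes were tested and 0 passed limma with adjusted p under 0.05 in any comparison, where 0.0% of all 26383 passed. Adjusted p of the members from limma ran between 0.637 and 0.999 (estrogen minus placebo), 0.992 and 0.9997 (E+P minus placebo), and 0.799 and 0.990 (E+P minus estrogen). At unadjusted p under 0.05 from limma the member counts were 0 against 7.83% of all, 1 (the second RGS12 probe set) against 3.3%, and 0 against 1.76%.

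A looser rule asked for groups that do not overlap and a log2 difference of at least 1. Estrogen was higher than placebo by this rule for 6 members, of GNAI3, GNB1, GNG4, GNG5, GNG8 and RGS10 (20.1% of all), and lower for 3, of GNB4, RGS10 and RGS12 (16.3%). E+P was higher than placebo for 1, RGS7BP (8.91%), and lower for 2, of RGS4 and RGS12 (8.15%). E+P was higher than estrogen for 4, of GNG11, RGS10, RGS12 and RGS14 (10.7%), and lower for 6, of GNB1, GNB5, GNG8, RGS4, RGS11 and RGS12 (9.64%). The comparisons share arrays, so these counts are not independent, and fitted values of groups below the floor are among them, as they are in all medians. Standard errors of the members ran from 0.81 to 1.41.

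**Figure D4:**
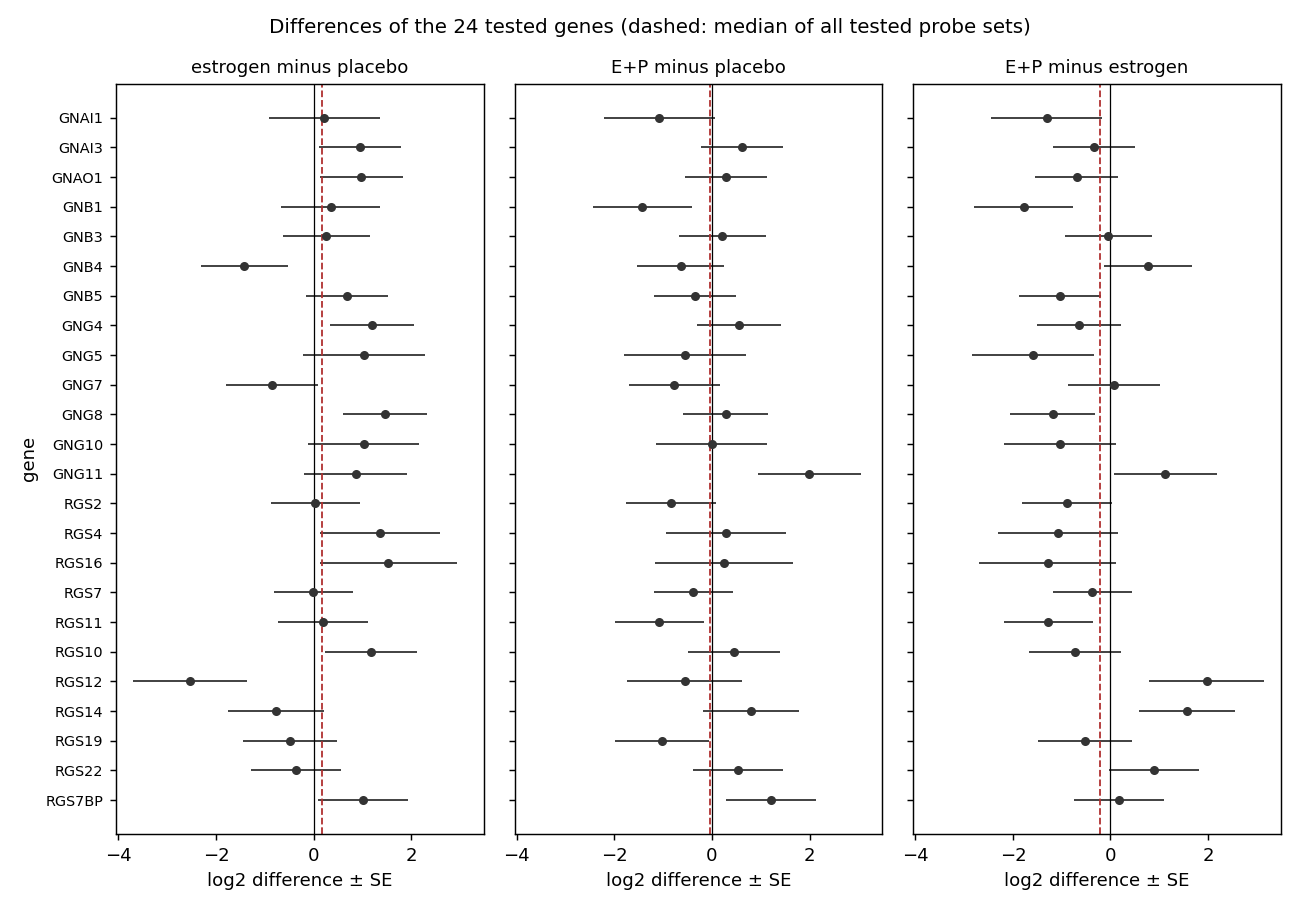
Log2 difference with its standard error (horizontal axis) for the 24 tested genes (rows, 1 probe set each) in the 3 comparisons; the dashed line is the median of all 26383 tested probe sets and E+P is estrogen with progesterone. RGS12 lies lowest for estrogen minus placebo at -2.53 and highest for E+P minus estrogen at 1.97, and no gene passed the test.

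Scaling also moved other estrogen minus placebo values. With median-centering and with no normalization these were -0.75 and -2.00 for GNB4, 1.91 and 0.66 for GNB5, and 2.66 and 1.42 for GNG5. They were 3.07 and 1.82 for RGS4, -1.34 and -2.59 for RGS12, and -0.23 and -1.47 for RGS14. The signs held for these 6 genes and the sizes did not. The same scalings gave, for E+P minus estrogen, -2.35 and -1.55 for GNAO1, -2.07 and -1.27 for GNAI1, 0.77 and 1.57 for RGS12, and 0.71 and 1.51 for RGS14.

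The members' median log2 difference was 0.32 for estrogen minus placebo, with 25 of 36 above 0. It was 0.11 for E+P minus placebo, with 19 above 0, and -0.59 for E+P minus estrogen, with 11 above 0. With median-centering 31, 26 and 8 stood above 0, and with no normalization 20, 17 and 12, while the median of all tested probe sets moved from 0.17, -0.03 and -0.22 to 1.11, 0.27 and -0.74 and to -0.14, -0.17 and 0.06. These 36 passed a filter on mean signal and do not stand for all 58. Without placebo 1 the first median was -0.10 and the second -0.45, and without E+P 2 the second was 0.41 and the last 0.01.

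Leaving out E+P 1, so that E+P 2 alone was set against estrogen, brought 3 members past the threshold. These were RGS12 at 3.60, GNG5 at -3.53 and GNB1 at -2.96 (limma adjusted p of 0.0342, 0.0365 and 0.0371). In that fit 15.0% of all probe sets passed, and the lone array was assumed to vary like the other groups.

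Array background moved with treatment. Both placebo arrays were high-floor and both estrogen arrays low-floor, so treatment and array background cannot be told apart in that comparison. The hybridization controls were also higher on the high-floor arrays. In deposited signal, 11 member probe sets (19% against 12.7% of all) were higher on every low-floor array than on every high-floor array, among them probe sets of GNAO1, GNAI1, GNAI3, GNB1, GNG5, RGS2, RGS7 and RGS20. The reverse held for 12 (20.7% against 34.2% of all), among them probe sets of RGS12, RGS14 and GNB4.

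Marker genes of neurons and glia also differed between arrays. Of 10 general neuronal markers 5 were named, and their summed signals were 5167 and 10509.8 under placebo, 24032 and 27252 under estrogen, and 21059 and 1782 under E+P. All 5 exceeded the floor on every array but E+P 2, where 4 did. Of 8 astrocyte markers 6 were named, with sums of 19047 and 21815, 56937 and 60095, and 65057 and 3168, and 4 to 6 of them exceeded the floor. Other lists moved otherwise: the 7 named serotonin neuron markers summed to 1879 and 1666 under placebo, 1558 and 898 under estrogen, and 1412 and 2074 under E+P. The 2 dopamine neuron markers summed to 739 and 602, 8834 and 752, and 2701 and 186, highest on estrogen 1. No marker was at 0. Their part in the members' differences was not tested.

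Probe sets of the same gene often disagreed. Of 10 genes with several tested probe sets, 6 had probe sets of 1 sign for estrogen minus placebo, 3 for E+P minus placebo and 5 for E+P minus estrogen. These signs include fitted values of groups below the floor. RGS2 probe sets lay 0.04 to 0.18 apart. For E+P minus estrogen the RGS12 probe sets were on opposite sides of 0, 1 at 1.97 and the other lower by at least 1.48-fold.

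**Figure D5:**
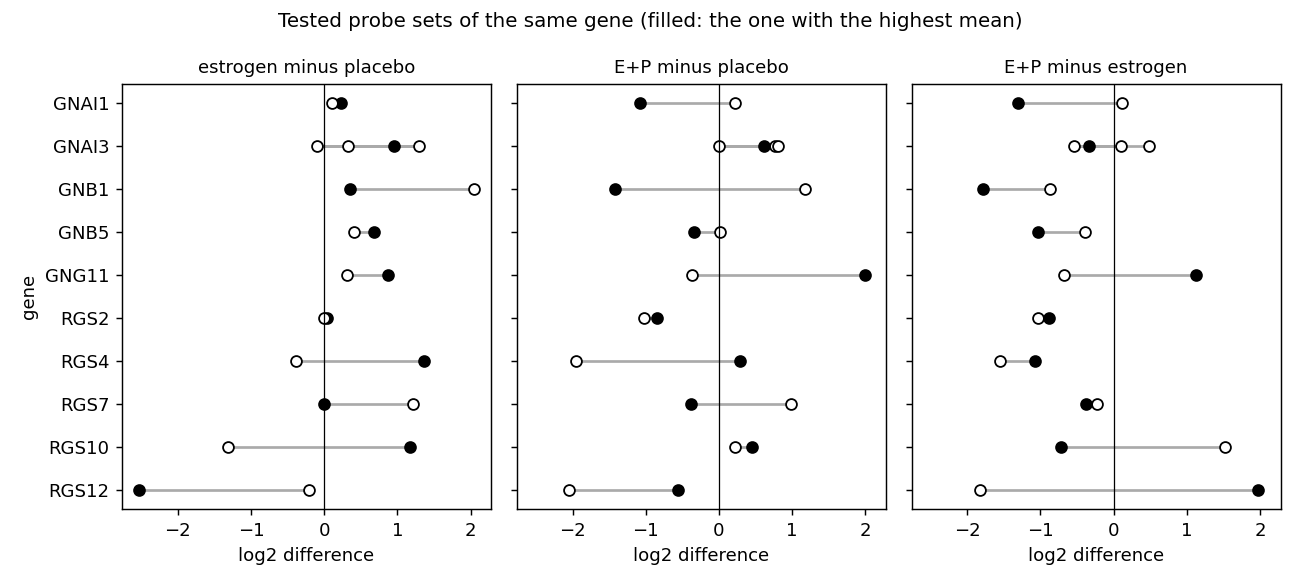
Log2 differences (horizontal axis) of every tested probe set of the 10 genes with more than 1, in the 3 comparisons; filled points are the brightest probe sets, lines join probe sets of a gene, fitted values of groups below the floor are included, and E+P is estrogen with progesterone. RGS2 probe sets nearly coincide, while those of every other gene shown lie on opposite sides of 0 in at least 1 comparison.

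Receptors, effectors and regulators that work with these proteins were read from lists of 76 genes, of which 55 were named and 32 tested. By limma 0 passed in any comparison, and 0 had an unadjusted p under 0.05. Of these, 16 stood above 0 for estrogen minus placebo, 15 for E+P minus placebo and 15 for E+P minus estrogen, with medians of 0.04, -0.11 and -0.08. HTR1A exceeded the floor on estrogen 2 alone, at 56.2, and HTR1E was the 1 tested gene of 9 named serotonin receptors. On the placebo arrays, with their higher floors, HTR1A read 175 and 43.7. KCNJ6, a GIRK channel subunit, exceeded the floor on all 6 arrays, at 377 and 864 under placebo, 777 and 615 under estrogen, and 333 and 506 under E+P. The 5 tested adenylyl cyclases had medians of 0.19 for estrogen minus placebo and 0.72 for E+P minus placebo, and the 3 tested phospholipase C beta genes -0.29 and -1.02. These were the highest and lowest list medians for E+P minus placebo, and the other lists with tested genes lay between -0.39 and 0.40. Single genes there ran from -0.85 (ADCY8) to 0.99 (ADCY7) and from -1.53 (PLCB2) to -0.05 (PLCB4).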

How the data were processed

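Members and lists were chosen with earlier results of these data known. Each sample was hybridised to 1 biotin-labelled array, per the labels. The authors deposited 1 linear intensity per probe set and array. Without the outer 2% at both ends, the mean intensity of an array is about 200.0, so arrays had been scaled. The software is not given in the sources used here, nor is a build. Symbols came from the platform annotation, and 57 of 58 member probe sets matched a RefSeq gene number.

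For testing, 16 was added to the intensity before log2, which understates differences of dim genes, followed by quantile normalization. The brighter part of the probe sets, from the 50th percentile of the mean upward, was tested with limma 3.58.1 in R 4.3.3 (6 arrays, 3 residual degrees of freedom, two-sided, Benjamini-Hochberg adjustment over 26383 probe sets). The fit was tested on simulated data. An exact permutation test of 2 against 2 cannot go below p = 0.333 and was not used. Where both arrays of a group are below the floor, a bound stands for the size of the difference, from normalized means with each dim value raised to its array's floor; a fitted difference of such a group, where printed, is not a measured size. Such bounds cover neither the spread between animals nor array differences.

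A gene is represented by the brightest of its tested probe sets. Values on every array are given for alpha and beta subunits, for gamma and RGS genes above the floor on at least 4 arrays, for up to 6 genes per comparison with the smallest unadjusted p among non-overlapping groups, and for RGS2, RGS4, RGS10, RGS14, RGS16 and RGS20. Further values were chosen after they were seen. Alternatives were other offsets, scalings and filters, array weights, a replicate block, fits of the compared groups alone, other probe sets and leaving out each array.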

Additional observations from a re-analysis of the deposited data

How the results depend on the processing

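Member probe sets past the threshold numbered 0 in each comparison with offsets of 1 and 64, without quantile normalization, with median-centering, without a filter, with a filter at the 75th percentile, with array weights, with the replicate block and in fits of the compared groups alone. With array weights 434 of all 26383 probe sets passed for estrogen minus placebo, against 0 without. Leaving out 1 array gave 0 to 3 for E+P minus estrogen and 0 otherwise. Signals near an array's floor have no reliable order. Median-centering moved the members' medians to 1.52, 0.41 and -1.13 (estrogen minus placebo, E+P minus placebo, E+P minus estrogen). Leaving out 1 array gave medians of -0.10 to 0.52, -0.45 to 0.41 and -0.99 to 0.0055 in that order. Sample names share numbers across groups, but deviations of same-numbered arrays correlated at only -0.063 to 0.082, so the numbers were not taken as pairs; with the replicate block the medians were 0.32, 0.11 and -0.59. Median-centering reversed E+P minus placebo for GNB1 (0.083) and RGS2 (0.32).

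Leaving out 1 array changed the sign of estrogen minus placebo for GNAI1 (-0.39 to 0.85) and RGS4 (-0.19 to 3.07). It did so for E+P minus placebo of GNAO1 (-0.24 to 0.83) and RGS2 (-1.61 to 0.055), and for E+P minus estrogen of GNAI1 (-2.78 to 0.41), GNAI3 (-0.63 to 0.017) and GNG5 (-3.53 to 0.54). Among the differences followed through these alternatives, some had the opposite sign by another probe set of the gene. In estrogen minus placebo these were RGS10 (-1.31), GNAI3 (-0.10) and RGS4 (-0.39). In E+P minus placebo they were GNB1 (1.18) and GNG11 (-0.37). In E+P minus estrogen they were RGS12 (-1.83), GNAI1 (0.12) and GNAI3 (0.10 and 0.49). RGS7 was not followed, and its probe sets gave -0.01 and 1.22 for estrogen minus placebo. The GNB1 and RGS12 values here are fitted against a group below the floor. The cause of these changes was not tested.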
